A study of Mus musculus with 203 samples.

Results

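The genes described here are the Toll-like receptor genes Tlr1 to Tlr9 and Cd14, which encodes a co-receptor of these proteins. These 10 members were taken by symbol from a table of 43346 gene identifiers, and each symbol matched a single identifier. Lung RNA was sequenced from female Balb/C mice with a labelled age of 18 to 20 weeks, and the lungs had been separated by blunt dissection into airway and parenchyma, the gas-exchanging tissue. At 3 weeks, mice had received house dust mite extract (HDM), an allergen mixture used to model asthma, or phosphate-buffered saline (PBS), into the nose on 5 days per week. The 4 groups at 3 weeks held 11 airway libraries of PBS mice, 10 of HDM mice, 12 parenchyma libraries of PBS mice and 10 of HDM mice. At 11 weeks, mice carried on with PBS or with HDM given 3 times per week, breathed normal air (AIR) or cigarette smoke (CS) for 8 weeks, and were left untreated or given dexamethasone (DEX), a glucocorticoid, during week 11. The labels name these exposures PBS.AIR, HDM.AIR, PBS.CS and HDM.CS, each with and without .DEX, which makes 16 groups of 10 libraries over both tissues. No allele, transgene or knockout is named in the labels of any group.

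Toll-like receptors sense conserved parts of microbes. TLR1, TLR2, TLR4, TLR5 and TLR6 sit on the cell surface, where TLR2 pairs with TLR1 or TLR6 to bind bacterial lipopeptides, TLR4 binds lipopolysaccharide together with MD-2, and TLR5 binds flagellin. TLR3, TLR7, TLR8 and TLR9 act in endosomes and bind nucleic acids, and CD14 hands lipopolysaccharide to TLR4 and assists other members. The signals pass through the adaptors MyD88 and TRIF to NF-kB and interferon regulatory factors. Macrophages, monocytes, neutrophils, dendritic cells and B cells carry several of these receptors, and airway epithelium carries some as well. HDM extract holds lipopolysaccharide and proteins that resemble MD-2, and TLR4 is known as a sensor of it in the lung.

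In the annotation on GRCm38 (mm10), all 10 members are protein-coding genes. Tlr1 (chr5:64924679-64933563, minus strand) and Tlr6 (chr5:64952031-64960097, minus strand) lie next to each other, as do Tlr8 (chrX:167242696-167264329, minus strand) and Tlr7 (chrX:167304929-167330558, minus strand). The others are Tlr2 (chr3:83836272-83841767, minus strand), Tlr3 (chr8:45395665-45411080, minus strand), Tlr4 (chr4:66827584-66930284, plus strand), Tlr5 (chr1:182954788-182976044, plus strand) and Tlr9 (chr9:106222598-106226883, plus strand). Neighbouring members are related in sequence, and how reads that match both were shared out is not stated. Exons of Tlr3 overlap those of Gm45542, an antisense gene on the opposite strand, and the sources used here do not state whether counting used strand.

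Promoter windows of 250 bases before to 50 bases after a transcript start were taken from RefSeq on GRCm38.p6. The search covered 7 of the 10 members, in 9 windows. No entry was found for Tlr4 and Tlr7, and Cd14 was left out of the search. A set of 3 short motifs were searched on both strands: GAGGAAGT, a core of the site of PU.1, the product of Spi1, GGNNNTTCC, a form of the NF-kB site, and TTCNNNGAA, the STAT core. The windows shown are those of Tlr1 and Tlr9, which hold the PU.1 letters, Tlr2, whose levels followed Spi1 most closely, and Tlr3 and Tlr5, the members that were lower with HDM. Capitals mark a motif match.
Tlr1 (chr5:64933509-64933808, minus strand): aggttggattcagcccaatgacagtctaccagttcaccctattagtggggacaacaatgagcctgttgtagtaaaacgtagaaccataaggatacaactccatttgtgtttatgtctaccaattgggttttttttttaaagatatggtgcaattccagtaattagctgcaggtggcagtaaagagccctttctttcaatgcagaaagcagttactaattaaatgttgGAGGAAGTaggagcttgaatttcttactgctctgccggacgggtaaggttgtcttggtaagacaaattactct
Tlr9 (chr9:106222348-106222647, plus strand): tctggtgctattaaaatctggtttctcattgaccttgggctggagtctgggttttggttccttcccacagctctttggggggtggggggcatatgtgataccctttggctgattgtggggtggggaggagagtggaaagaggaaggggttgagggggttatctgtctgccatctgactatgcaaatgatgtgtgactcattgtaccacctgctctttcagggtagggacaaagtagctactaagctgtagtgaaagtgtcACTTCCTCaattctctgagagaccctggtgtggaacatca
Tlr2 (chr3:83841559-83841858, minus strand): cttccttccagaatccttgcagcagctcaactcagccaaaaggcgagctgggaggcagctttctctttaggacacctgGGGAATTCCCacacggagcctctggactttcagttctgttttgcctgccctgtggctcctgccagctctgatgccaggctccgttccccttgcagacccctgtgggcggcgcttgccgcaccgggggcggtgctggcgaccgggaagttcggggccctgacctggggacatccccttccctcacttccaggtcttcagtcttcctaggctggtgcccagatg
Tlr3 (chr8:45410331-45410630, minus strand): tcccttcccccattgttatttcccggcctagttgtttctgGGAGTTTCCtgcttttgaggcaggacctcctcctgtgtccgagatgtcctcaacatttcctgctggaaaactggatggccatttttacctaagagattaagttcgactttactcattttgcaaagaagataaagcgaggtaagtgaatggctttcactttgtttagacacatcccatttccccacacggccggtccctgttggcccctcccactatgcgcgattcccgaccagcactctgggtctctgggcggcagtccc
Tlr5 (chr1:182954538-182954837, plus strand): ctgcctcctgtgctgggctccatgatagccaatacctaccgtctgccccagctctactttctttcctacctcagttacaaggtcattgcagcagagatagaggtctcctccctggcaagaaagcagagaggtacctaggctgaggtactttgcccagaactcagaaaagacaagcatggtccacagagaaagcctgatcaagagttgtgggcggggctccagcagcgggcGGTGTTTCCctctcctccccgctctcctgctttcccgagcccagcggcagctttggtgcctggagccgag
The PU.1 letters stood in 1 of the Tlr1 windows and in the Tlr9 window, where they read ACTTCCTC on the strand shown, and in 3.2% of 32851 mouse promoter windows of the same length. The NF-kB letters stood in the windows of Tlr2, Tlr3, Tlr5 and Tlr6 and in 18.5% of all windows. In the Tlr2 window, 2 matches overlap in a single palindromic run. STAT letters were found for Tlr1, Tlr6 and Tlr8, and in 8.3% of all windows. Tlr3 and Tlr5, which were lower with HDM, and Tlr2 and Tlr6, which were higher, thus all carried the NF-kB letters. These matches describe the letters in the windows only.

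Libraries held from 13003154 to 40240733 counts in total, and all but the shallowest held at least 18756105. Library X32 (HDM.AIR.DEX, parenchyma) had the lowest total, and libraries X63 (HDM, airway, 3 weeks), X81 (PBS, airway, 3 weeks) and X155 (PBS.CS.DEX, airway) correlated least with their own groups. No member value that passed the test below turned direction when these 4 libraries were left out. However, 3 values, of Tlr3, Tlr6 and Cd14, then no longer passed, and 4 values newly passed. Levels are given as CPM, the share of a gene in its library's TMM-normalised counts, and changes as log2 fold changes from limma-voom with a standard error (SE) and a p-value adjusted over all genes tested. A gene is said to have risen or fallen where its adjusted p was under 0.05. The labelled tissues differed in their markers: in PBS mice at 3 weeks, 5 of 5 smooth muscle, 5 of 5 cardiac muscle and 5 of 5 ciliated cell markers were higher in airway, and 5 of 5 alveolar type I markers were lower. Airway libraries still held 1005 to 4058 CPM of alveolar type I markers against 4548 to 6219.8 in parenchyma. In bulk tissue, more cells of a type and more RNA per cell cannot be told apart.

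In PBS parenchyma at 3 weeks, levels per kilobase of exon placed Cd14 first among the 10 members and Tlr9 last. The group medians were 15.2 CPM per kb for Cd14, 9.66 for Tlr2, 8.8 for Tlr3, 5.87 for Tlr4, 5.85 for Tlr7, 3.75 for Tlr1, 2.88 for Tlr8, 1.68 for Tlr6, 1.07 for Tlr5 and 0.181 for Tlr9. Members differed in how far their levels ranged over the study. Over the 20 group medians, the highest was 16.2 times the lowest for Tlr9 and 12.6 times for Cd14, but only 2.67 times for Tlr4 and 1.69 times for Tlr3. Tlr8, Tlr2 and Tlr1 spanned 9.54, 9.16 and 8.56 times, and Tlr7, Tlr6 and Tlr5 spanned 4.93, 4.63 and 3.39 times. All 10 members passed the filter on low counts in each fit.

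The first comparison asked how 3 weeks of HDM changed these genes in each tissue. In airway, 8 of the 10 members rose and 2 fell, where 34.1% of all genes tested were higher and 40.5% lower. In parenchyma the same counts were 8 and 2, where 33.4% of all genes tested were higher and 44.3% lower. The genes that rose were Cd14, Tlr1, Tlr2, Tlr4, Tlr6, Tlr7, Tlr8 and Tlr9 in both tissues, and the genes that fell were Tlr3 and Tlr5. At a log2 fold change of at least 1, the limit used in the study, 7 members were higher in airway against 12.1% of all genes, and 8 in parenchyma against 14.5%. The median log2 fold change of the members was 1.66 in airway and 1.92 in parenchyma, beside -0.067 and -0.127 over all genes tested.

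Cd14 (chr18:36725067-36726798, minus strand) had the largest rise in parenchyma. Its lowest, median and highest levels there were 19.1, 26.3 and 32.3 CPM with PBS and 227.4, 331.4 and 680.7 CPM with HDM. In airway they were 42.8, 49.9 and 63.7 CPM with PBS and 146.3, 223.9 and 358.1 CPM with HDM. The groups did not overlap in either tissue, and PBS airway libraries all lay above PBS parenchyma libraries. The log2 fold change of Cd14 was 2.12 ± 0.14 (SE, adjusted p = 5.58e-17) in airway and 3.74 ± 0.15 (SE, adjusted p = 1.07e-23) in parenchyma.

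Among the surface receptors, Tlr2, Tlr1 and Tlr6, which form the lipopeptide receptors, rose in both tissues. Tlr2 lay at 25.2, 29.1 and 38.8 CPM (lowest, median and highest) in PBS parenchyma and at 136.2, 179.96 and 244.2 CPM in HDM parenchyma. In airway it lay at 16.4, 23.6 and 30.2 CPM with PBS and 41, 89.8 and 176.002 CPM with HDM. No HDM library of either tissue came down to the PBS range. The log2 fold changes of Tlr2 were 2.00 ± 0.17 (SE, adjusted p = 1.47e-13) in airway and 2.5 ± 0.17 (SE, adjusted p = 1.18e-16) in parenchyma. Those of Tlr1 were 1.76 ± 0.13 and 1.94 ± 0.13, and those of Tlr6 1.56 ± 0.14 and 1.90 ± 0.14. HDM and PBS libraries did not overlap for Tlr1 or Tlr6 in either tissue.

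Tlr4, the lipopolysaccharide receptor, rose with log2 fold changes below those of the lipopeptide receptors, a difference between genes that was not tested. Its levels in parenchyma were 25.9, 32.6 and 46.2 CPM with PBS and 73.1, 87.2 and 97.1 CPM with HDM (lowest, median and highest), with no overlap, and its log2 fold change was 1.31 ± 0.08 (SE, adjusted p = 3.43e-18). In airway, where HDM libraries ran from 49.4 to 83.1 CPM and PBS libraries from 29.2 to 39.6 CPM, it was 0.94 ± 0.08 (SE, adjusted p = 1.04e-13). Tlr5, the flagellin receptor, went the other way. In parenchyma it was at 4.14, 5.11 and 6.81 CPM with PBS and 2.17, 3.09 and 4.04 CPM with HDM, and all HDM libraries lay below all PBS libraries. The log2 fold change of Tlr5 was -0.82 ± 0.15 (SE, adjusted p = 4.00e-06) in parenchyma and -0.65 ± 0.14 (SE, adjusted p = 4.55e-05) in airway, where 3 of 10 HDM libraries lay below the PBS range and the others overlapped it.

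The endosomal receptors split as well. Tlr9, the sensor of unmethylated CpG DNA, was the lowest of the members in PBS mice. Its lowest, median and highest levels were 0.219, 0.628 and 1.29 CPM in PBS parenchyma and 5.88, 7.74 and 13.1 CPM in HDM parenchyma. In airway they were 0.585, 0.96 and 4.18 CPM and 4.88, 10.2 and 13.6 CPM, and all HDM libraries of both tissues lay above all PBS libraries. Its log2 fold changes, 2.92 ± 0.25 (SE, adjusted p = 1.77e-13) in airway and 3.65 ± 0.33 (SE, adjusted p = 2.08e-13) in parenchyma, were the largest of the receptors. In counts, PBS parenchyma libraries held 4 to 27 reads of Tlr9, so its fold changes rest on few reads on that side.

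Tlr8 and Tlr7, a receptor of single-stranded RNA, rose in both tissues. Tlr8 was at 2.5, 5.85 and 15.9 CPM (lowest, median and highest) in PBS airway and 10.4, 37.3 and 58.8 CPM in HDM airway, and 9 of 10 HDM libraries lay above the PBS range. The log2 fold changes of Tlr8 were 2.48 ± 0.29 in airway and 2.14 ± 0.25 in parenchyma, and those of Tlr7 were 1.44 ± 0.15 and 1.46 ± 0.14. Tlr3, which binds double-stranded RNA, fell. It was at 41, 45.8 and 50.8 CPM in PBS parenchyma and 24.5, 29.3 and 42.1 CPM in HDM parenchyma, where 9 of 10 HDM libraries lay below the PBS range. Its log2 fold change was -0.61 ± 0.08 (SE, adjusted p = 8.18e-09) in parenchyma and -0.27 ± 0.08 (SE, adjusted p = 0.00314) in airway, where the groups overlapped.

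**Figure D1:**
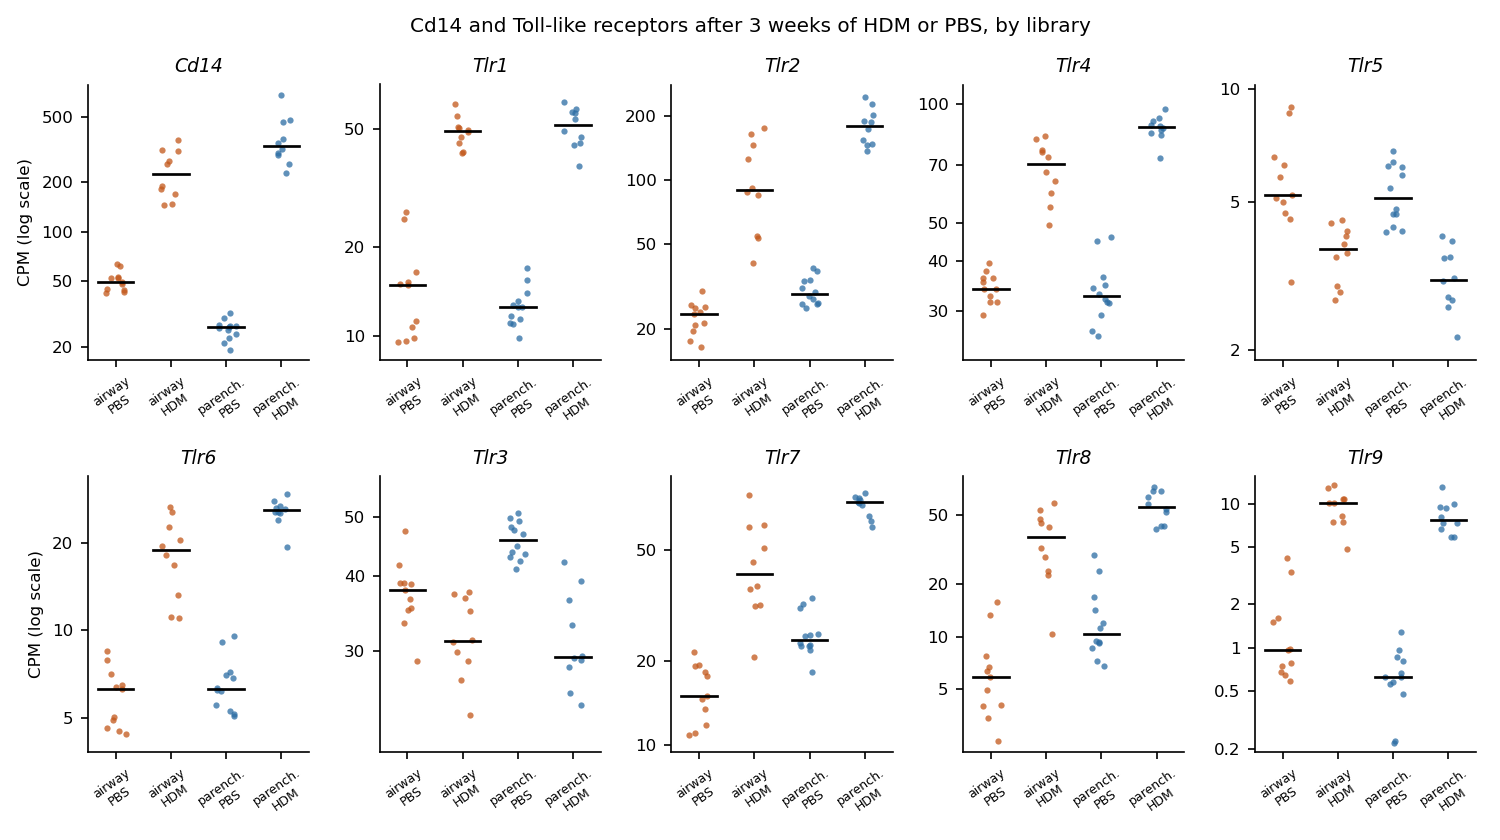
Level of each gene in every library at 3 weeks (CPM, log scale), by tissue and exposure, with airway libraries in orange, parenchyma libraries in blue and a black bar at each group median. Parenchyma medians of Cd14 go from 26.3 to 331.4 CPM with HDM and those of Tlr9 from 0.628 to 7.74 CPM, while those of Tlr5 go from 5.11 to 3.09 CPM.

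Markers of leukocytes moved in the same comparisons, and their part in the results was not tested. 7 of 8 macrophage markers rose in parenchyma and 7 of 8 in airway, where Marco fell, and their summed level went from 293.4 to 426.3 CPM in PBS parenchyma to 1128 to 1349.5 CPM in HDM parenchyma. In airway that sum was 248.1 to 426.1 CPM with PBS and 584.7 to 1226 CPM with HDM. Of the neutrophil markers 6 of 6 rose in airway and 6 of 6 in parenchyma, and their sum in airway was 88.8 to 339.2 CPM with PBS and 505.9 to 1428 CPM with HDM. Of the monocyte markers 4 of 5 rose in airway and 5 of 5 in parenchyma. Their summed level was 292.5 to 685.9 CPM with PBS and 792.4 to 11355 CPM with HDM in airway, and 362.6 to 1116 CPM with PBS and 3259 to 25185 CPM with HDM in parenchyma, so that the groups stood apart in both tissues. Of these, Chil3, a chitinase-like protein also made by macrophages, had log2 fold changes of 3.83 ± 0.43 (SE, adjusted p = 2.26e-10) in airway and 4.21 ± 0.46 (SE, adjusted p = 5.51e-11) in parenchyma. The part of Chil3 in the monocyte sums was not separated. All 5 T cell markers rose in both tissues, and 5 of 5 B cell markers rose in airway and 3 of 5 in parenchyma. The summed B cell markers were 99.2 to 404.3 CPM in PBS airway, 311.1 to 618.5 in HDM airway, 137.6 to 221.4 in PBS parenchyma and 233.7 to 472.9 in HDM parenchyma, and those of T cells were 37.7 to 139.4, 93.5 to 214.7, 46.9 to 73.8 and 109.7 to 252.9 CPM. On the side of the falls, 5 of 5 endothelial and 5 of 5 alveolar type I markers fell in parenchyma, beside Tlr3 and Tlr5. None of the macrophage, neutrophil, monocyte, B cell, T cell, endothelial or alveolar type I markers was at 3 counts or fewer throughout a group.

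Whether HDM acted differently in the 2 tissues was tested as an interaction at 3 weeks. It passed for 3 members, where 10.8% of all genes tested were higher and 6.44% lower. Cd14 rose less in airway, by a difference of -1.62 ± 0.20 (SE, adjusted p = 4.81e-06) between the log2 fold changes. Tlr4 also rose less in airway, with a difference of -0.36 ± 0.11 (SE, adjusted p = 0.0234). Tlr3 fell less there, with a difference of 0.34 ± 0.12 (SE, adjusted p = 0.0354), and this call was lost under 5 of the 9 alternatives (adjusted p of 0.0884 to 0.130). For the other 7 members the difference did not pass the test. Without HDM, the tissues themselves differed for 6 members at 3 weeks, where 24.3% of all genes tested were higher and 31.7% lower. Cd14 (0.99 ± 0.14) and Tlr9 (0.98 ± 0.38) were higher in airway on the log2 scale, and Tlr2 (-0.41 ± 0.17), Tlr3 (-0.28 ± 0.08), Tlr7 (-0.69 ± 0.16) and Tlr8 (-1.04 ± 0.32) were lower. The tissue difference of Tlr9 was lost with sample quality weights (adjusted p = 0.0611), and that of Tlr2 with other size factors (0.0588) and without the filter on low counts (0.130). For Tlr9 the PBS airway libraries X81 and X161 stood out, at 4.18 and 3.36 CPM. Its group medians were 0.96 CPM in airway and 0.628 CPM in parenchyma. At 11 weeks in PBS.AIR mice, where 26.3% of all genes tested were higher and 30.1% lower, Cd14 was again higher in airway (1.17 ± 0.15) and Tlr2, Tlr3, Tlr7 and Tlr8 were again lower (-0.65 ± 0.16, -0.37 ± 0.07, -0.68 ± 0.16 and -1.21 ± 0.19). Tlr6 was lower in airway at that time too, at -0.34 ± 0.13, a call lost without the filter on low counts (adjusted p = 0.0584). Tlr9 did not pass the test between tissues at 11 weeks. At 3 weeks 5 of 6 neutrophil and 4 of 5 endothelial markers were also lower in airway, and their part was not tested.

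The same HDM comparison was available at 11 weeks in air-breathing mice without dexamethasone. In airway 8 members rose and Tlr5 fell, where 31.3% of all genes tested were higher and 29.8% lower. In parenchyma 8 rose and both Tlr3 and Tlr5 fell, where 32.6% of all genes tested were higher and 26.9% lower. Cd14 was again the largest change in parenchyma, at 20.3, 27.1 and 33.4 CPM in PBS.AIR and 139.7, 176.3 and 403.8 CPM in HDM.AIR (lowest, median and highest), with no overlap and a log2 fold change of 3.05 ± 0.15 (SE, adjusted p = 2.31e-40). In airway its log2 fold change was 1.44 ± 0.14 (SE, adjusted p = 6.00e-17). Tlr9 was at 1.59, 2.61 and 4.23 CPM in PBS.AIR airway and 6.78, 7.94 and 12.5 CPM in HDM.AIR airway, so that the groups stood apart, and its log2 fold change was 1.76 ± 0.21 (SE, adjusted p = 3.78e-13). In parenchyma that of Tlr9 was 1.93 ± 0.24 (SE, adjusted p = 2.05e-12). Tlr5 fell in both tissues, by 0.75 ± 0.12 in airway, where all HDM.AIR libraries lay below all PBS.AIR libraries, and by 0.64 ± 0.13 in parenchyma on the log2 scale. Tlr3 passed in parenchyma (-0.39 ± 0.07, adjusted p = 1.97e-06) and not in airway (-0.13 ± 0.08, adjusted p = 0.119), where 3 alternatives called it lower with values of -0.17 to -0.24. As at 3 weeks, Cd14 and Tlr4 rose less in airway than in parenchyma, with differences of -1.61 ± 0.21 (SE, adjusted p = 2.49e-09) and -0.32 ± 0.12 (SE, adjusted p = 0.0407), where 12.7% of all genes tested were higher and 14.9% lower. The Tlr4 difference was lost without the filter on low counts (adjusted p = 0.0509) and with all libraries in 1 fit (0.0679).

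The HDM effect at 11 weeks was then set against that at 3 weeks by an interaction over all libraries. Smaller effects at 11 weeks passed for 4 members in airway, where 14.5% of all genes tested were higher and 13.9% lower, and for 6 in parenchyma, where 21.5% of all genes tested were higher and 20.9% lower. Tlr8 and the DNA sensor Tlr9 had the largest values: in parenchyma, the effect at 11 weeks less that at 3 weeks was -1.57 ± 0.28 (SE, adjusted p = 1.41e-06) for Tlr8 and -1.84 ± 0.40 (SE, adjusted p = 5.64e-05) for Tlr9. Both moved on the PBS side too, since the PBS parenchyma median of Tlr8 was 10.3 CPM at 3 weeks and 31.9 CPM in PBS.AIR at 11 weeks, against 55.9 and 50.4 CPM with HDM. For Tlr9 the PBS medians were 0.628 and 1.81 CPM. In airway, Cd14 (-0.74 ± 0.20), Tlr4 (-0.55 ± 0.12), Tlr8 (-1.22 ± 0.32) and Tlr9 (-1.21 ± 0.33) had smaller effects. In parenchyma, so did Tlr2 (-1.06 ± 0.23), Tlr6 (-0.94 ± 0.17), Cd14 (-0.81 ± 0.22) and Tlr4 (-0.66 ± 0.12). Tlr1, Tlr3, Tlr5 and Tlr7 did not pass in either tissue. The times differ in more than the length of exposure, since HDM was given less often after week 3, and these cannot be told apart.

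**Figure D2:**
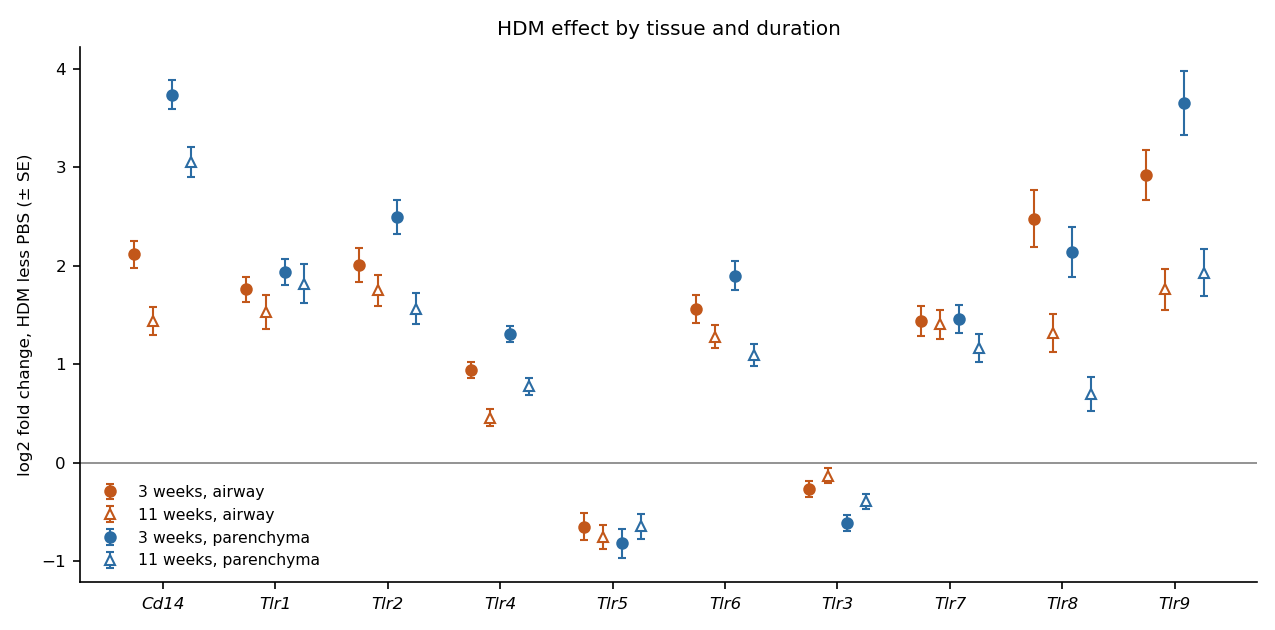
Log2 fold change of HDM against PBS for each gene (vertical axis, points with bars of 1 SE), in airway (orange) and parenchyma (blue), at 3 weeks (filled circles) and at 11 weeks in air-breathing mice (open triangles). Cd14 in parenchyma lies highest at 3.74 and 3.05, and Tlr5 and Tlr3 lie below 0.

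Cigarette smoke without HDM raised part of the same set at 11 weeks. In airway 5 members rose, where 7.66% of all genes tested were higher and 6.03% lower. In parenchyma 6 rose and Tlr3 fell, where 17.7% of all genes tested were higher and 18.2% lower. Cd14 stood out in parenchyma, with 20.3, 27.1 and 33.4 CPM in PBS.AIR and 69.4, 128.5 and 152.7 CPM in PBS.CS (lowest, median and highest), no overlap and a log2 fold change of 2.18 ± 0.15 (SE, adjusted p = 4.61e-27). In airway Cd14 went from 36.7, 55.3 and 98.1 CPM to 68.3, 85.4 and 108.3 CPM with overlap, at 0.61 ± 0.14 (SE, adjusted p = 0.000791). The difference between the tissues, -1.58 ± 0.21 (SE, adjusted p = 1.12e-08), passed, and that of no other member did in this fit, where 0.685% of all genes tested were higher and 3.04% lower. Tlr2 was at 31.8, 34.7 and 41.7 CPM in PBS.AIR and 45.8, 78.9 and 95.3 CPM in PBS.CS parenchyma, with no overlap, and rose by 1.04 ± 0.15 (SE, adjusted p = 1.07e-08). Tlr7 was at 21.9, 26.8 and 32.4 CPM and 46.8, 50.5 and 60.5 CPM, likewise apart, and rose by 0.97 ± 0.14 (SE, adjusted p = 9.85e-09). In airway, Tlr1, Tlr2, Tlr6 and Tlr7 rose by 0.57, 0.61, 0.61 and 0.60, each with overlap, and in parenchyma Tlr1, Tlr4 and Tlr6 rose by 0.54, 0.47 and 0.56. The rise of Tlr1 in airway was lost under edgeR (adjusted p = 0.0857) and DESeq2 (0.0833), and in parenchyma without the filter on low counts (0.0554). Tlr8 and Tlr9 had log2 fold changes of 0.09 and 0.36 in airway and 0.02 and 0.50 in parenchyma, and Tlr5 of 0.14 and 0.10, none of which passed.

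Macrophage and neutrophil markers rose with smoke beside these members, and their part was not tested. 6 of 8 macrophage and 6 of 6 neutrophil markers rose in airway, and 6 of 8 and 5 of 6 in parenchyma. The summed macrophage markers in parenchyma were 350.3 to 545.6 CPM in PBS.AIR and 734.8 to 1063 CPM in PBS.CS, and the summed neutrophil markers 156.2 to 619.3 and 320.9 to 800.3 CPM. The median log2 fold change of the macrophage markers in parenchyma was 0.99, beside 2.18 for Cd14. The B cell markers had median log2 fold changes of -0.01 in airway and -0.30 in parenchyma, and the T cell markers of 0.43 and -0.05.

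Added to HDM, smoke gave no rise of Cd14, Tlr1, Tlr2 or Tlr6 that passed, with log2 fold changes of -0.37, -0.35, -0.21 and -0.01 in airway. In airway Tlr5 rose (0.49 ± 0.13, adjusted p = 0.00306) and Tlr9 fell (-0.61 ± 0.17, adjusted p = 0.00773), where 6.07% of all genes tested were higher and 10.1% lower. In parenchyma Tlr5 rose and 3 members fell, where 10.0% of all genes tested were higher and 14.1% lower. The falls there were of Cd14 (-0.64 ± 0.15, adjusted p = 0.000448), Tlr1 (-0.48 ± 0.16, adjusted p = 0.0198) and Tlr9 (-0.80 ± 0.20, adjusted p = 0.00106), and that of Tlr1 was lost under edgeR (adjusted p = 0.0582) and DESeq2 (adjusted p = 0.0515). Tlr5 in airway was at 3.39, 4.64 and 5.56 CPM in HDM.AIR and 3.84, 9.12 and 11 CPM in PBS.CS, and at 5.1, 6.42 and 7.14 CPM in HDM.CS (lowest, median and highest), between the other exposures by its median. Tlr9 in airway was lost under edgeR and DESeq2 (adjusted p = 0.117 and 0.113).

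The HDM by smoke interaction, which tests whether the HDM effect under smoke was that under air, was lower for 5 members in airway, where 7.72% of all genes tested were higher and 11.4% lower. In parenchyma it was lower for 7 members and higher for 2, where 17.3% of all genes tested were higher and 18.7% lower. Cd14 in parenchyma had the largest value, -2.83 ± 0.21 (SE, adjusted p = 1.95e-23): its medians were 27.1 CPM in PBS.AIR, 176.3 in HDM.AIR, 128.5 in PBS.CS and 140.9 in HDM.CS. With both exposures the median of Cd14 lay between those of either exposure alone. Tlr2 (-1.39 ± 0.22, adjusted p = 5.89e-08), Tlr9 (-1.30 ± 0.34, adjusted p = 0.000965), Tlr1, Tlr7, Tlr6 and Tlr4 (-1.01, -0.94, -0.79 and -0.61) were also lower in parenchyma. Tlr3 (0.39) and Tlr5 (0.44), which HDM lowered under air, were higher, so their HDM effect was less negative under smoke than under air. For Tlr5 this call was lost without the filter on low counts (adjusted p = 0.0710). Smoke itself lowered Tlr3 in PBS parenchyma (-0.23), and HDM.CS was not tested against PBS.CS directly. In airway, Cd14 (-0.98 ± 0.20), Tlr9 (-0.97 ± 0.29), Tlr1 (-0.93 ± 0.24), Tlr2 (-0.82 ± 0.22) and Tlr6 (-0.62 ± 0.16) passed. The Tlr9 value there was lost under edgeR and DESeq2 (adjusted p = 0.0605 and 0.0572). By the same test 5 of 8 macrophage markers were lower in airway and 6 of 8 in parenchyma, and 5 of 6 and 5 of 6 neutrophil markers, and their part was not tested.

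**Figure D3:**
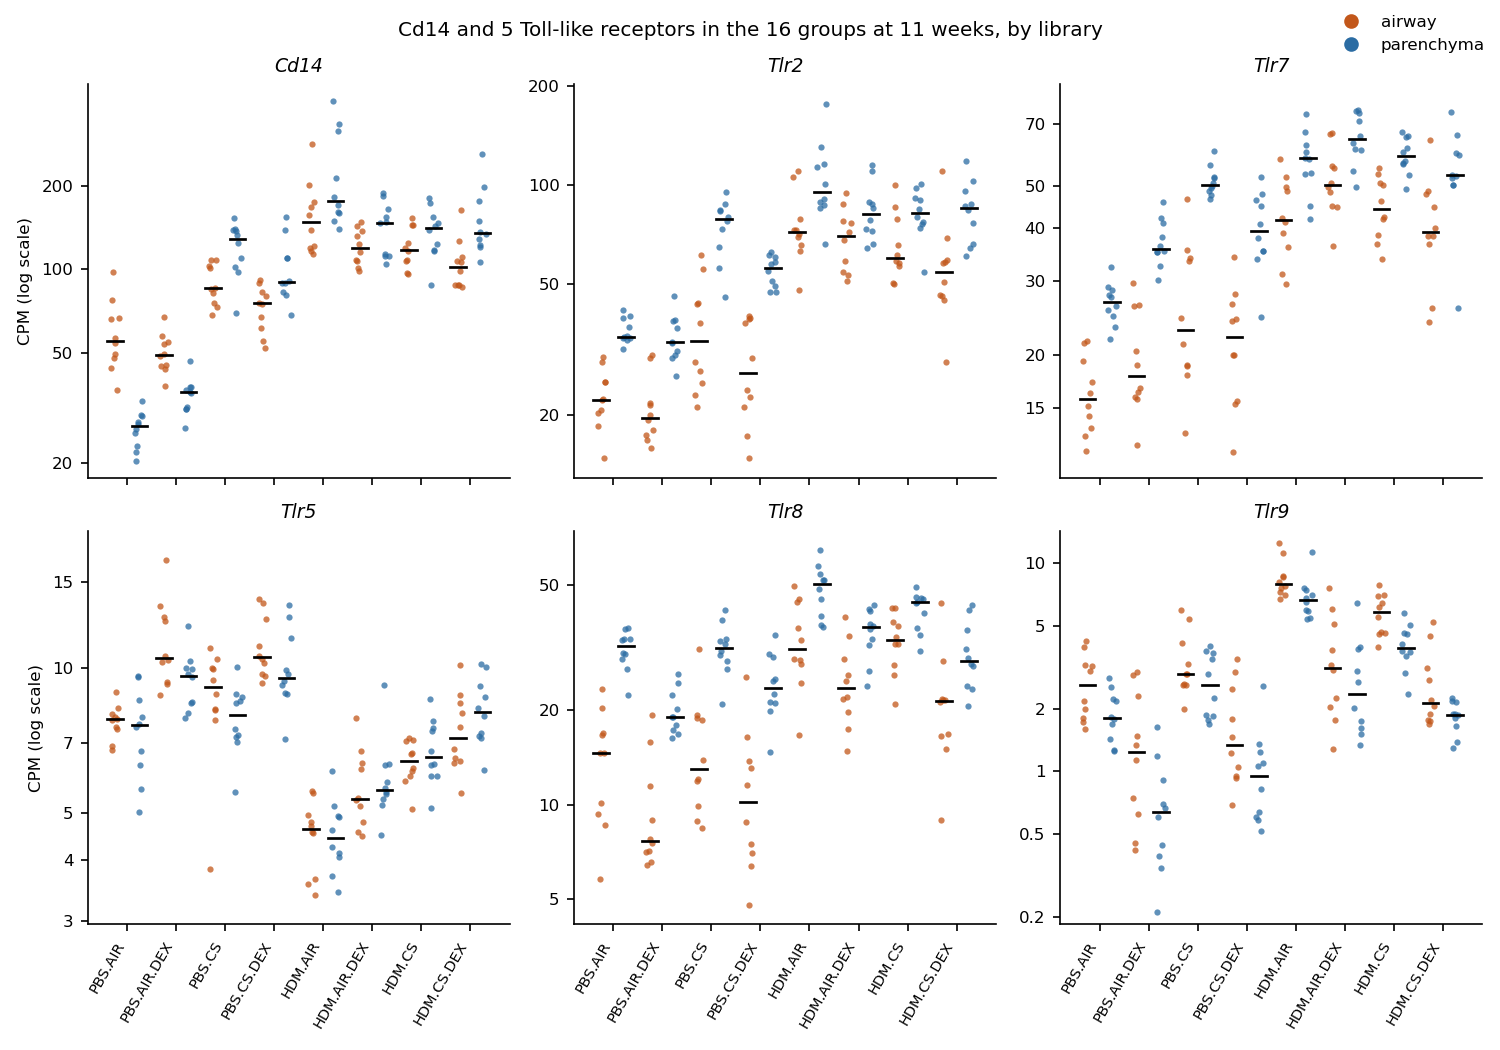
Levels of Cd14, Tlr2, Tlr7, Tlr5, Tlr8 and Tlr9 in every library at 11 weeks (CPM, log scale), for the 8 exposures named on the horizontal axis, with airway libraries in orange, parenchyma libraries in blue and a black bar at each group median. Cd14 in parenchyma has medians of 27.1 CPM in PBS.AIR, 128.5 in PBS.CS and 176.3 in HDM.AIR, and Tlr9 is lower in each DEX group than in its partner without DEX.

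Dexamethasone was compared with no dexamethasone within each of the 4 exposures and both tissues, which gives 8 comparisons. Tlr9 fell in all 8, by log2 fold changes from -1.12 to -1.57, with adjusted p-values from 2.29e-09 to 0.00172. In PBS.AIR parenchyma its levels were 1.25, 1.81 and 2.81 CPM without and 0.211, 0.635 and 1.63 CPM with dexamethasone (lowest, median and highest), and 9 of 10 treated libraries lay below the untreated range. HDM.AIR parenchyma held 5.42, 6.67 and 11.4 CPM without and 1.34, 2.35 and 6.43 CPM with dexamethasone. Only in HDM.CS parenchyma, at 2.37, 3.93 and 5.8 CPM and 1.29, 1.87 and 2.26 CPM, did treated and untreated libraries stand fully apart.

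No other member passed in all 8. Tlr1 fell in 4 of the 8 comparisons, with log2 fold changes of -0.62 and -0.59 in HDM.AIR airway and parenchyma and of -0.82 and -0.81 in PBS.CS. Tlr8 fell in 3, with -0.65 ± 0.18 (SE, adjusted p = 0.00483) in PBS.AIR parenchyma, -0.50 ± 0.17 (SE, adjusted p = 0.0184) in HDM.AIR parenchyma and -0.73 ± 0.18 (SE, adjusted p = 0.00199) in HDM.CS airway. Tlr5 rose in the 4 comparisons without HDM, by 0.55, 0.36, 0.38 and 0.33 in PBS.AIR and PBS.CS airway and parenchyma. With HDM its values were 0.29, 0.31, 0.19 and 0.27, none of which passed. In air-breathing mice the HDM by dexamethasone interaction of Tlr5 was -0.25 in airway and -0.05 in parenchyma. Neither value passed (adjusted p of 0.448 to 0.903), so a difference in its response with HDM was not shown. The difference between PBS.CS and HDM.CS mice was not tested. Tlr3 fell in PBS.AIR parenchyma (-0.31) and in PBS.CS airway and parenchyma (-0.30 and -0.22), the last of which was lost with all libraries in 1 fit (adjusted p = 0.0519).

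Cd14 moved in opposite directions by exposure. In PBS.AIR parenchyma it rose, from 20.3, 27.1 and 33.4 CPM to 26.8, 36 and 46.6 CPM (0.41 ± 0.15, adjusted p = 0.0342), and in HDM.AIR parenchyma it fell, from 139.7, 176.3 and 403.8 CPM to 104.8, 147.4 and 189.1 CPM (-0.59 ± 0.15, adjusted p = 0.00094). The groups overlapped in both cases, and the rise was lost without the filter on low counts (adjusted p = 0.127). The HDM by dexamethasone interaction of Cd14 in parenchyma was -1.01 ± 0.21 (SE, adjusted p = 0.000483), and Tlr4, which rose with dexamethasone in PBS.AIR parenchyma (0.28 ± 0.09) and not in HDM.AIR parenchyma (-0.06 ± 0.09), passed the same test at -0.34 ± 0.12 (SE, adjusted p = 0.0482), where 6.02% of all genes tested were higher and 6.38% lower. That of Tlr4 was lost with all libraries in 1 fit (adjusted p = 0.0729). In airway no member passed the interaction by limma-voom, edgeR or DESeq2, and 0 had an unadjusted p under 0.05, where 1.11% of all genes tested were higher and 3.52% lower. The fall of Cd14 in HDM.AIR airway (-0.37 ± 0.15, adjusted p = 0.0474) was lost under 5 of the 8 alternatives (adjusted p of 0.05004 to 0.0953), and the fall of Tlr6 in HDM.AIR parenchyma (-0.25 ± 0.10, adjusted p = 0.0496) under 6 of the 8 (0.0526 to 0.111). Tlr7 rose in PBS.AIR parenchyma (0.48 ± 0.14) and fell in PBS.CS parenchyma (-0.41 ± 0.14), where Tlr2 fell as well (-0.44 ± 0.15), though not without the filter on low counts (adjusted p = 0.0556).

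Markers of myeloid cells moved in the same dexamethasone comparisons, and their part in the results of Cd14, Tlr4 and Tlr7 was not tested. In PBS.AIR parenchyma 2 of 5 monocyte markers rose, Chil3 (1.53 ± 0.32, adjusted p = 0.000119) and F13a1 (0.62 ± 0.20, adjusted p = 0.0185), and Plac8 fell (-0.78 ± 0.20, adjusted p = 0.00227). The CPM of all 5 monocyte markers were added up, and the part of Chil3 in this sum was not separated. In PBS.AIR parenchyma the sum was 567.8 to 968.9 CPM without dexamethasone and 1114 to 1964 CPM with it, with no overlap. There 4 of 6 neutrophil markers rose, with a sum of 156.2 to 619.3 CPM without and 300.8 to 690.7 CPM with dexamethasone, and 1 of 8 macrophage markers rose and 3 of 8 fell, with sums of 350.3 to 545.6 and 424.7 to 517.3 CPM. In HDM.AIR parenchyma 3 of 5 monocyte and 1 of 6 neutrophil markers fell, and the monocyte sum was 1134 to 13330.0 CPM without and 2139.8 to 7112 CPM with dexamethasone.

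In PBS.AIR, 1 member rose and 1 fell in airway, where 8.03% of all genes tested were higher and 6.85% lower, and 4 rose and 3 fell in parenchyma, where 10.6% of all genes tested were higher and 12.0% lower. In HDM.AIR, 3 fell in airway, where 12.5% of all genes tested were higher and 16.0% lower, and 5 fell in parenchyma, where 12.2% of all genes tested were higher and 16.2% lower. In PBS.CS, 1 rose and 3 fell in airway, where 4.68% of all genes tested were higher and 6.60% lower, and 1 rose and 5 fell in parenchyma, where 7.39% of all genes tested were higher and 9.49% lower. In HDM.CS, 2 fell in airway, where 2.25% of all genes tested were higher and 7.05% lower, and only Tlr9 fell in parenchyma, where 2.46% of all genes tested were higher and 5.40% lower. In HDM.CS parenchyma, 5 members had an unadjusted p under 0.05.

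The HDM effect was also present under dexamethasone. HDM.AIR.DEX against PBS.AIR.DEX gave 8 rises and the fall of Tlr5 in airway, where 23.6% of all genes tested were higher and 26.1% lower, and 8 rises and the falls of Tlr3 and Tlr5 in parenchyma, where 22.6% of all genes tested were higher and 19.6% lower. In treated parenchyma Cd14 was at 26.8, 36 and 46.6 CPM without and 104.8, 147.4 and 189.1 CPM with HDM, still apart, and its log2 fold change was 2.04 ± 0.15 (SE, adjusted p = 2.10e-26). Tlr2 rose by 1.71 ± 0.16 (SE, adjusted p = 2.58e-18) in airway and by 1.31 ± 0.16 (SE, adjusted p = 7.49e-13) in parenchyma. Tlr9 rose by 1.48 ± 0.28 (SE, adjusted p = 2.28e-06) and 1.99 ± 0.35 (SE, adjusted p = 4.26e-07), but from and to lower levels than without dexamethasone.

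**Figure D4:**
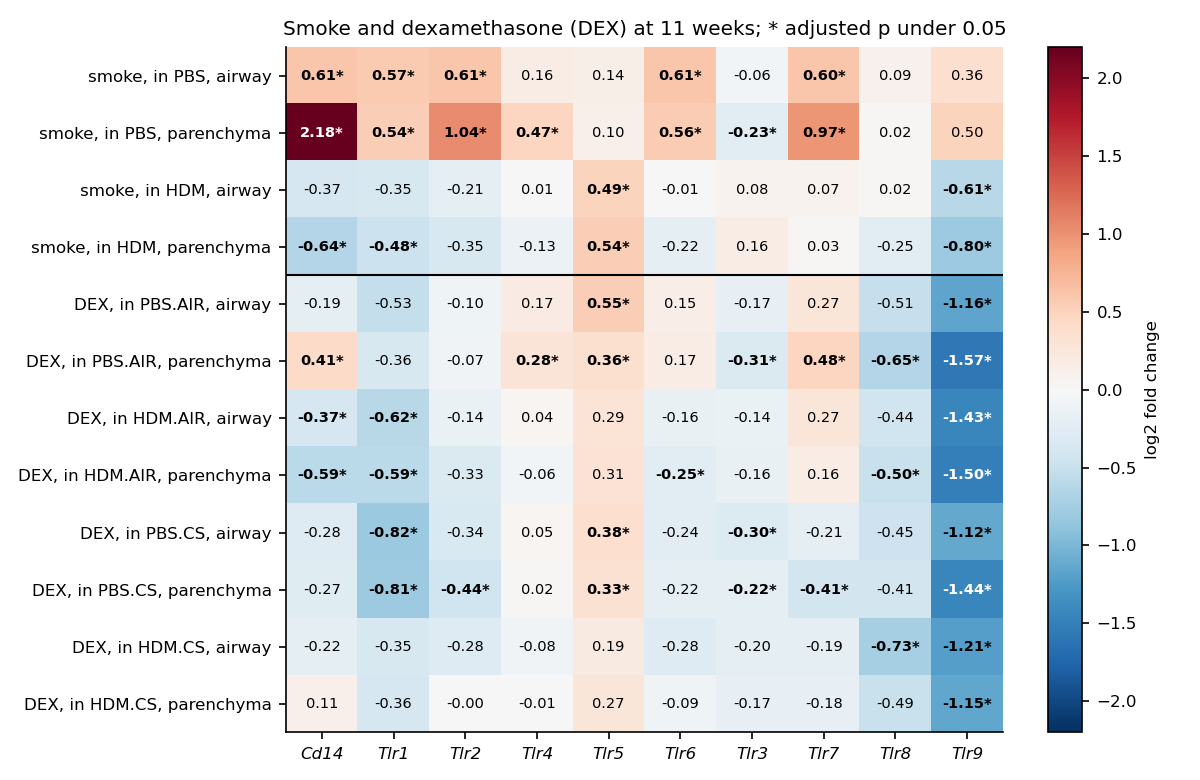
Log2 fold changes (numbers and colour scale) of each gene for smoke against air, in PBS and HDM mice (upper 4 lines), and for dexamethasone (DEX) against none, in 4 exposures (lower 8 lines), in airway and parenchyma at 11 weeks. Bold values with an asterisk have an adjusted p under 0.05; Tlr9 is lower in all 8 DEX lines, from -1.12 to -1.57.

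Lymphocyte markers fell with dexamethasone beside Tlr9, and so did most plasmacytoid dendritic cell markers, given here for PBS.AIR and HDM.AIR parenchyma only. The part of these cells in the fall of Tlr9 was not tested. All 5 B cell markers fell in each of the 8 comparisons, and all 5 T cell markers in each but HDM.AIR airway, where 4 of 5 did. The median log2 fold change of the B cell markers ran from -2.31 in PBS.CS parenchyma to -1.01 in HDM.CS airway. Their summed level in HDM.AIR parenchyma was 202.8 to 388.6 CPM without and 59.9 to 179.7 CPM with dexamethasone, and in PBS.CS parenchyma 36.4 to 144.8 and 6.89 to 63.9 CPM. Of the plasmacytoid dendritic cell markers, 4 of 5 fell in PBS.AIR parenchyma and 4 of 5 in HDM.AIR parenchyma, where their sums were 18.3 to 44.4 and 6.19 to 17.2 CPM without and with the drug. The summed macrophage markers there were 804.8 to 1267 and 846.0 to 1135 CPM, with 3 of 8 lower and 0 higher. None of the B cell, T cell, plasmacytoid dendritic cell or macrophage markers was at 3 counts or fewer throughout a group.

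As these members moved by different amounts, the makeup of receptor RNA differed between groups, given here as a description. The share of each receptor was taken from the sum of the 9 receptors' levels per kilobase in a library, without Cd14. Tlr2 made up a median of 24.5% (range 21.3% to 28%) in PBS parenchyma and 41.6% (37.4% to 50.3%) in HDM parenchyma at 3 weeks, and Tlr3 22.6% (16% to 26.2%) and 4.27% (3.42% to 5.48%). In airway Tlr3 went from 21.2% to 5.81% and Tlr9 from 0.714% to 3%. The share of Tlr7 had medians of 11.3% and 11.3% in airway with PBS and HDM. The summed level itself was 40.2 CPM per kb with PBS and 141.6 with HDM in parenchyma, and 34.2 and 91.7 in airway. At 11 weeks, Tlr4 took 20.3% of the sum in PBS.AIR airway and 13.8% in HDM.AIR airway, and Tlr8 took 17.8% in PBS.AIR parenchyma and 11% in PBS.AIR.DEX parenchyma.

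**Figure D5:**
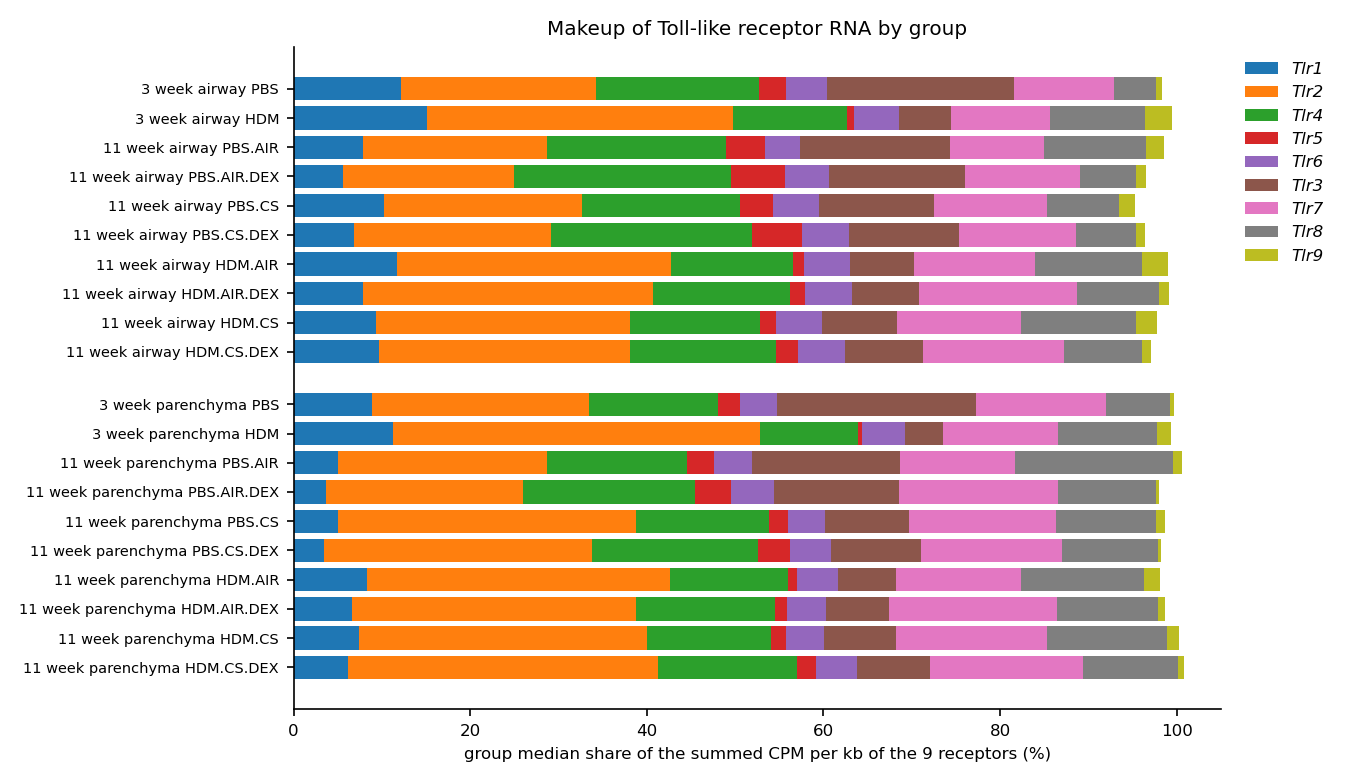
Median share of each of the 9 receptors in their summed level (CPM per kb of exon, horizontal axis in %), for each of the 20 groups, airway above and parenchyma below. Bars need not add to 100 because each share is a median; Tlr3 goes from 22.6% to 4.27% and Tlr2 from 24.5% to 41.6% with HDM in parenchyma at 3 weeks.

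Other genes of the pathway were followed by list. Beside the list counts at 3 weeks of HDM, 34.1% of all genes tested were higher in airway and 33.4% in parenchyma. The shares lower were 40.5% and 44.3%. Of the co-receptors and accessory proteins, 7 of 8 rose in airway and 7 of 8 in parenchyma at 3 weeks of HDM, with list medians of 0.95 and 1.2 on the log2 scale. Ly96, which encodes MD-2, rose by 1.09 ± 0.11 and 1.44 ± 0.11, and Unc93b1, the chaperone that brings endosomal receptors to their compartment, by 1.24 ± 0.09 and 1.72 ± 0.09. Cd180, which encodes a receptor-like partner of MD-1, rose most (2.38 and 2.78), and Cd36, a scavenger receptor that assists TLR2, was the 1 list member that fell (-0.84 and -1.01). All 5 endosomal proteases rose in both tissues, Ctss the most, by 3.01 and 3.49; these enzymes trim endosomal receptors.

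Signalling genes moved less evenly. Of the adaptors, 4 of 5 rose in either tissue, with Myd88 at 0.88 ± 0.08 and 1.25 ± 0.08, Ticam1, which encodes TRIF, at 0.77 ± 0.07 and 0.97 ± 0.08, and Ticam2 highest at 2.34 and 2.80, while Sarm1 did not pass. Kinases and ligases had list medians of 0.32 and 0.18, with 10 of 14 and 9 of 14 higher. Ikbke rose most (1.97 in parenchyma), and against the list Tab3 fell in both tissues (-0.17 and -0.46), Tab1 and Ikbkg in airway (-0.23 and -0.22) and Chuk in parenchyma (-0.12). Of the transcription factors 6 of 10 rose in each tissue, led by Rel (2.03 and 2.24), while Jun fell in both (-0.58 and -0.91) and Irf3 in parenchyma (-0.32). Of the inhibitors 8 of 11 rose in each tissue. Socs1 rose most among them (2.60 in parenchyma), Irak3, a kinase homologue that restrains the receptors, rose by 1.09 ± 0.15 and 1.59 ± 0.16, and Dusp1 (-1.29 and -1.33), Sigirr (-0.28 and -0.36) and, in parenchyma, Tollip (-0.12) fell.

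Of the 16 inducible targets, Ifnb1 did not pass the filter on low counts, and all 15 others rose in both tissues, with list medians of 2.82 and 3.59. Nos2, the inducible nitric oxide synthase, rose most, by 5.15 ± 0.62 and 6.16 ± 0.64. With smoke alone 10 of 15 rose in airway, where 7.66% of all genes tested were higher. In parenchyma 11 of 15 rose and 1 of 15 fell, that being Ccl5 (-1.50, named after its value was seen). There 17.7% of all genes tested were higher and 18.2% lower. Dexamethasone in HDM.AIR mice lowered 7 of 15 in airway and 8 of 15 in parenchyma, where 16.0% and 16.2% of all genes tested were lower.

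The mouse also has Tlr11, Tlr12 and Tlr13, which were not among the 10 members. Tlr13, a sensor of bacterial ribosomal RNA, rose with HDM at 3 weeks by 2.33 ± 0.14 in airway and 2.76 ± 0.14 in parenchyma, and with smoke in PBS mice by 1.35 ± 0.16 and 1.67 ± 0.15. Tlr11 and Tlr12, which act together as sensors of profilin, rose with HDM at 3 weeks as well, by 0.97 and 1.95 in parenchyma. Dexamethasone lowered both in all 8 comparisons. In PBS.AIR parenchyma Tlr11 went from 4.12, 5.72 and 6.29 CPM to 0.622, 1.53 and 2.31 CPM (lowest, median and highest), with no overlap and a log2 fold change of -2.02 ± 0.26 (SE, adjusted p = 5.81e-10), and that of Tlr12 was -1.32 ± 0.29 (SE, adjusted p = 0.000217). Tlr11 also fell with smoke in PBS mice, by -0.90 ± 0.17 in airway and -0.72 ± 0.22 in parenchyma, and in HDM mice by -1.09 ± 0.16 and -1.26 ± 0.18.

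Levels of a member were ordered over the 20 groups by their medians. Cd14, Tlr1, Tlr2, Tlr4, Tlr6, Tlr7 and Tlr8 were highest in 3 week HDM parenchyma and Tlr9 in 3 week HDM airway. The highest median of Tlr3 was in 3 week PBS parenchyma (45.8 CPM), and that of Tlr5 in a dexamethasone-treated airway group, at 10.5 CPM. Neighbours in these orders mostly overlapped. For Tlr1 the HDM groups at 3 weeks (51.8 and 49.4 CPM) overlapped each other. The 3 week airway HDM libraries lay wholly above the next group, HDM.AIR airway at 11 weeks (31.1 CPM), and the lowest of the parenchyma HDM libraries did not (37.7 against a highest of 37.9 CPM).

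Genes whose group means ran closest to a member were found by Pearson correlation over the 20 group means on a log2 scale with 0.1 CPM added. These values describe 20 points that share mice, exposures and tissue makeup, and carry no test. Tlr2 ran closest to Spi1 (r = 0.994), Plek (r = 0.992) and Egr2 (r = 0.988), and Spi1 encodes the myeloid factor PU.1. For Cd14 the genes were Gapdh (r = 0.968), Slc16a3 (r = 0.968) and Nfkbie (r = 0.965). Tlr1 ran closest to Lpxn (r = 0.984), Icos (r = 0.983) and Ctla4 (r = 0.982), of which Icos and Ctla4 encode T cell proteins. Tlr9 ran closest to Fnbp1 (r = 0.982), Ccr4 (r = 0.976) and Akna (r = 0.975). For Tlr7 they were Atp6v1b2 (r = 0.991), F7 (r = 0.985) and Plaur (r = 0.983), for Tlr6 Csf2rb (r = 0.984), Naip2 (r = 0.983) and Tnfrsf1b (r = 0.983), for Tlr4 Ptprj (r = 0.985), Tfe3 (r = 0.976) and Sbno2 (r = 0.973) and for Tlr8 Dclre1b (r = 0.966), Pak2 (r = 0.964) and Rassf4 (r = 0.958). The members that fell with HDM had other neighbours, Fyco1 (r = 0.973), Mut (r = 0.965) and Pafah2 (r = 0.962) for Tlr5 and Tmem252 (r = 0.967), Yaf2 (r = 0.936) and Wdr37 (r = 0.930) for Tlr3.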

How the data were processed

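Total RNA was extracted with TRizol and sequenced as 100 bp single reads. The submitters' processing notes name STAR 2.5.1b, RSEM 1.2.31, kallisto 0.44.0 and mm10. Which quantifier made the table, and whether strand was used, is not given in the sources used here. The authors deposited estimated counts per gene for 203 libraries, in which 20.3% of non-zero values were not whole, and these were rounded. Identifiers took symbols from GENCODE M21 with versions ignored (42462 of 43346, of which 23106 also matched by version). Genes at the CPM equivalent of 10 counts in at least 9 libraries were kept (17381 at 3 weeks, 18250 at 11 weeks, 18528 over all libraries). limma-voom (limma 3.58.1, edgeR 4.0.16 for TMM, R 4.3.3) was fitted per time with 1 mean per group, with Benjamini-Hochberg adjustment. The fits at 3 weeks and at 11 weeks were tested on simulated counts for HDM against PBS, with far fewer changed genes than passed in the real data. The fit over all libraries and the interactions were not simulated. p-values test differences of group means against the spread between libraries, which were taken as independent. The tests were repeated with DESeq2 1.42.0, with its size factors, with edgeR's quasi-likelihood method, without the filter, with quality weights, in 1 fit of all libraries and, chosen after seeing the data, without 4 libraries and with library codes as a block. All 10 members are named. From each pathway list, the largest rise and fall with HDM at 3 weeks and members that went against the list are named, with Ly96, Unc93b1, Myd88, Ticam1, Irak3 and Tlr11 to Tlr13, and the 3 genes most like each member. The members and lists were chosen with earlier results of these data known.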

Additional observations from a re-analysis of the deposited data

Results flagged for a closer look

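A single library stood far from the other 9 of its group, by Dixon's 95% criterion, in 13 of the 180 sets of 10 libraries tested. These were Tlr1 in 11 week airway PBS.AIR (X65, highest, 26.9 CPM), Tlr2 in 11 week airway HDM.CS.DEX (X199, highest, 110.4 CPM), Tlr4 in 11 week airway HDM.AIR.DEX (X191, highest, 79.6 CPM), Tlr4 in 11 week airway HDM.CS.DEX (X199, highest, 80.6 CPM), Tlr5 in 11 week parenchyma HDM.AIR.DEX (X32, highest, 9.23 CPM), Tlr5 in 11 week airway PBS.CS (X174, lowest, 3.84 CPM), Tlr7 in 11 week parenchyma HDM.CS.DEX (X160, lowest, 25.9 CPM), Tlr8 in 11 week airway PBS.CS (X93, highest, 31.4 CPM), Tlr9 in 11 week parenchyma HDM.AIR (X110, highest, 11.4 CPM), Tlr9 in 11 week parenchyma HDM.AIR.DEX (X12, highest, 6.43 CPM), Tlr9 in 11 week parenchyma PBS.CS.DEX (X96, highest, 2.56 CPM), Cd14 in 11 week airway HDM.AIR (X109, highest, 282.7 CPM) and Cd14 in 11 week airway HDM.CS.DEX (X159, highest, 164.1 CPM). Library X199 was marked for both Tlr2 and Tlr4.

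Effects that differed between tissues, exposures or times passed the test of the difference itself in 32 of 90 cases. The share of all genes tested that passed differed between these comparisons, so the pooled count has no single share beside it. For the smoke effect between tissues 0.685% were higher and 3.04% lower. For the HDM effect at 11 weeks less that at 3 weeks in parenchyma, 21.5% were higher and 20.9% lower, and the Results give the other shares. Each case is given as a difference of log2 fold changes from limma-voom. For the HDM effect in airway less that in parenchyma at 3 weeks the values were 0.34 for Tlr3, -0.36 for Tlr4 and -1.62 for Cd14. For the HDM by smoke interaction in airway the values were -0.93 for Tlr1, -0.82 for Tlr2, -0.62 for Tlr6, -0.97 for Tlr9 and -0.98 for Cd14. The same interaction in parenchyma gave -1.01 for Tlr1, -1.39 for Tlr2, 0.39 for Tlr3, -0.61 for Tlr4, 0.44 for Tlr5, -0.79 for Tlr6, -0.94 for Tlr7, -1.30 for Tlr9 and -2.83 for Cd14. The HDM by dexamethasone interaction in parenchyma gave -0.34 for Tlr4 and -1.01 for Cd14. At 11 weeks the HDM effect in airway less that in parenchyma was -0.32 for Tlr4 and -1.61 for Cd14. The smoke effect in airway less that in parenchyma was -1.58 for Cd14. The HDM effect at 11 weeks less that at 3 weeks was, in airway, -0.55 for Tlr4, -1.22 for Tlr8, -1.21 for Tlr9 and -0.74 for Cd14. In parenchyma it was -1.06 for Tlr2, -0.66 for Tlr4, -0.94 for Tlr6, -1.57 for Tlr8, -1.84 for Tlr9 and -0.81 for Cd14.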

How the results depend on the processing

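Of 290 member values, 150 passed the test, and 2350 values were computed under the alternatives. Of these, 2218 kept their direction and their side of the threshold, 36 no longer passed, 64 newly passed and 32 reversed. The reversed values belonged to 12 results that did not pass and were at most 0.11 in size. All but 14 of the counts of members stayed within 1.5 times. With sample quality weights the count was 4 for dexamethasone in PBS.AIR airway, 4 in HDM.CS airway, 3 in HDM.CS parenchyma and 7 for smoke added to HDM in parenchyma. It was 1 for the HDM by dexamethasone interaction in parenchyma with all libraries in 1 fit, and 1 for the HDM effect between tissues at 11 weeks without the filter. The cause was not tested. Reversed log2 values were as follows. For Tlr7, the HDM effect between tissues at 3 weeks was 0.03 (edgeR) and 0.04 (without 4 libraries), and the HDM by dexamethasone interaction in airway 0.01 to 0.10 (0.01, 0.02, 0.03 and 0.10). For smoke added to HDM in airway, Tlr6 was at 0.00, 0.01, 0.02 and 0.06, and Tlr8 at -0.03 (edgeR) and -0.02 (DESeq2). Tlr2 was at 0.19 in the HDM by dexamethasone interaction in airway (quality weights) and at 0.01 and 0.02 for dexamethasone in HDM.CS parenchyma, where Tlr4 was at 0.00 and 0.01 and Cd14 at -0.01 (quality weights). Tlr5 was at 0.00 in the HDM by dexamethasone interaction in parenchyma (edgeR) and at -0.02 for the HDM effect at 11 weeks less that at 3 weeks in parenchyma (sets of codes). Tlr1 was at -0.06 (edgeR) and -0.05 (DESeq2) for smoke between tissues, and Tlr4 at 0.00 and -0.03 between tissues in PBS.AIR. The labels do not say which libraries came from the same mouse, and the tests above took all libraries as independent. An odd library code and the next even one, however, always held 1 airway and 1 parenchyma library of the same week and exposure (101 of 101 pairs). Their deviations from the group means correlated at a median of 0.265 (-0.191 to 0.605), with 88 pairs over 0.1, and 71.8% of the paired libraries correlated best with their own partner among those of the other tissue, week and exposure being the same. A replicate block of such pairs, chosen after seeing the data, was therefore fitted to the comparisons between tissues. It ended no call, and 4 members passed for the HDM effect between tissues at 11 weeks (Tlr3 and Tlr8 as well) and 2 for the smoke effect (Tlr4 as well). With sets of 20 consecutive codes as the block the counts were the same, 4 and 2, no call was lost, and dexamethasone counts were 4 in PBS.AIR airway, 5 in HDM.AIR airway, 4 in HDM.CS airway and 2 in HDM.CS parenchyma. Leaving out 1 library at a time was not run, since each group held at least 10 libraries. Tlr9 in PBS groups rests on few reads, which limits its precision.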
